A study of Rattus norvegicus with 12 samples.

Results

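miR-378 is a microRNA that is cut from a hairpin precursor as a pair of arms, miR-378a-5p from the 5′ side and miR-378a-3p from the 3′ side. Both arms were looked up by name among the 758 rat miRNAs of an Agilent 1-colour microarray, and 1 of the 2, miR-378a-5p, had a probe set of its own name. The array held no probe set named miR-378a-3p. The probe set named miR-378b listed miR-378a-3p beside it in the array's annotation, and both of its probes were exact complements of the 3′ part of miR-378a-3p. It is called the miR-378b/miR-378a-3p probe set here, and its signal cannot be divided between the 2 miRNAs.

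The arrays measured total RNA from left ventricular tissue near the infarct of 12 male Wistar rats, with 1 rat per array and 4 rats in each of 3 groups. The Sham group had the chest operation without tying of the coronary artery and received saline, the MI group, labelled as chronic heart failure, had the coronary artery ligated and received saline, and the YQFM group had the ligation and received Yiqifumai injection, a freeze-dried Chinese herbal preparation, intraperitoneally at 5 mg/kg each day for 28 days. The rats' age was not given in the sources used here. Titles and group entries placed each array, but the source names of MI replicate 4 and Sham replicate 4 read as another group. Slide 1 held MI replicates 1 to 3, slide 2 held MI replicate 4 and YQFM replicate 1, and slide 3 held the other 7 arrays, so that MI and Sham arrays never shared a slide.

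The gene of miR-378 lies within Ppargc1b, on the same strand in the rat assembly GRCr8. Ppargc1b encodes PGC-1β, a transcriptional coactivator of mitochondrial biogenesis and fatty acid oxidation, and the miRNA is best known as part of this metabolic programme in heart, skeletal muscle, liver and fat. Carnitine acetyltransferase, which buffers mitochondrial acetyl-CoA, is a known target of the 3p arm, and the Mediator subunit MED13 of the 5p arm. In cardiomyocytes miR-378 is also known for restraining growth signalling through targets such as IGF1R and GRB2. The gene of miR-378b lies elsewhere, on chromosome 5 within Ncoa2.

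The mature arms are shown because their seeds (bases 2 to 8, in capitals, the part that pairs with target mRNAs) differ, so that the arms pair with different sites. The sequences are those of RefSeq on GRCr8, where both arms lie on the minus strand of chromosome 18. No other of the 693 mature miRNA names in the RefSeq table carried either seed. The table held no mature sequence of miR-378b, so its seed was not compared.
rno-miR-378a-5p, chr18:57128962-57128983, 22 bases: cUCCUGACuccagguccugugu
rno-miR-378a-3p, chr18:57128925-57128945, 21 bases: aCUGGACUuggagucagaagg

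The probes are shown because they decide what each probe set can distinguish. Each set had 2 probes that differ by a single base of length and pair with the miRNA from its 3′ end, reaching the seed in 3 of the 4 probes and covering at most 4 of its bases.
longer probe of miR-378a-5p, 18 bases: acacaggacctggagtca
shorter probe of miR-378a-5p, 17 bases: acacaggacctggagtc
longer probe of the miR-378b/miR-378a-3p set, 14 bases: ccttctgactccaa
shorter probe of the miR-378b/miR-378a-3p set, 13 bases: ccttctgactcca
The longer probe of miR-378a-5p complemented bases 5 to 22 of the arm, and the longer probe of the miR-378b/miR-378a-3p set complemented bases 8 to 21 of miR-378a-3p. The complements of these probes were found in 0 other mature sequences of the RefSeq table. The mature sequence of miR-378b was not in the table used, so its match to the probes was not checked.

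Both probe sets were measured well on all 12 arrays. Each probe was spotted 8 times, which gave 16 spots per set and array, of which 12 to 16 were used for miR-378a-5p and 10 to 16 for the miR-378b/miR-378a-3p set after outlier spots were left out. Over the arrays 173 spots were used for each set, all 173 of them were well above background, and 0 were saturated. The coefficient of variation among spots of a probe on an array had a median of 5.53% for miR-378a-5p and 4.57% for the miR-378b/miR-378a-3p set. The spread between rats was small as well. The pooled within-group SD on the log2 scale was 0.16 for miR-378a-5p and 0.12 for the miR-378b/miR-378a-3p set, against a median of 0.25 over the 263 miRNAs tested, and 9 of the 263 had a smaller SD than the miR-378b/miR-378a-3p set. The number of arrays limits the precision of the comparisons, at 4 per group.

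Log2 levels are given on a common scale set by the 75th percentile on an array of the 201 miRNAs detected on all arrays. In the Sham group, miR-378a-5p had log2 levels of 5.53, 5.20, 4.98 and 5.26 in replicates 1 to 4. In the MI group its log2 levels were 4.95, 4.86, 4.66 and 4.92. All 4 MI hearts were below all 4 Sham hearts, and the closest values, MI replicate 1 and Sham replicate 3, were 0.04 apart on the log2 scale. In the YQFM group its log2 levels were 5.04, 5.01, 5.19 and 4.97. The YQFM hearts were all above the MI hearts, and their range lay within the lower part of the Sham range except that replicate 4 was just under it.

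The log2 level of miR-378a-5p averaged 5.24 ± 0.22 for the Sham rats, 4.85 ± 0.13 for the MI rats and 5.05 ± 0.09 for the YQFM rats (SD, n = 4 each). On the scaled signal, before the logarithm, the means in the same order were 38.2 ± 6.0, 28.8 ± 2.49 and 33.3 ± 2.23 (SD, n = 4 each). The order of the group means was thus Sham, YQFM, MI. YQFM and Sham, next to each other in this order, overlapped.

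**Figure D1:**
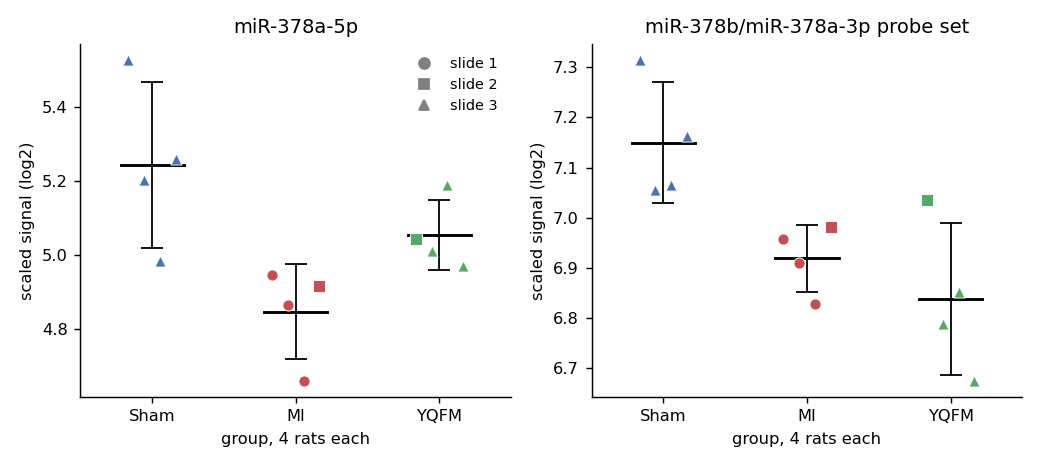
Scaled signal on the log2 scale (vertical axes, which do not start at 0) of miR-378a-5p and of the miR-378b/miR-378a-3p probe set by group. Points are rats, marker shapes are slides, and bars are the group mean with its SD (n = 4). For miR-378a-5p the MI rats sit at 4.66 to 4.95, below all Sham and all YQFM rats, while for the miR-378b/miR-378a-3p probe set they sit at 6.83 to 6.98, with YQFM rats on both sides of that range.

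The miR-378b/miR-378a-3p probe set had log2 levels of 7.31, 7.06, 7.07 and 7.16 in Sham replicates 1 to 4. In the MI group they were 6.96, 6.91, 6.83 and 6.98. Every MI heart was again below every Sham heart, with 0.07 between the closest values on the log2 scale. In the YQFM group they were 7.04, 6.79, 6.85 and 6.67. Here YQFM replicate 1, the single YQFM array on slide 2, was above all MI hearts, and the 3 YQFM arrays on slide 3 ran from 6.67 to 6.85. The means of the log2 level were 7.15 ± 0.12 for Sham, 6.92 ± 0.07 for MI and 6.84 ± 0.15 for YQFM (SD, n = 4 each). In order these were Sham, MI, YQFM, and the neighbours MI and YQFM overlapped.

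The comparison of MI with Sham addressed what ligation does to the miRNA. For miR-378a-5p the MI-to-Sham log2 ratio was -0.40 (SE 0.118, 95% confidence interval -0.66 to -0.14), a fold of 0.759. It missed the threshold of 0.05 at an adjusted p of 0.0578 (limma, moderated test over all 263 miRNAs, Benjamini-Hochberg), and stood 28th of the 263 by p. The exact permutation test of the single miRNA gave p = 0.0286 (two-sided), the smallest that 4 rats against 4 allow. In this comparison limma called 19 of 263 miRNAs, or 7.22%, of which 18 (6.84%) were lower in MI. At an unadjusted p under 0.05 there were 77, or 29.3%, and in 31, or 11.8%, all MI rats were below all Sham rats. The adjusted p of miR-378a-5p was 0.0377 without MI replicate 4, a rat whose labels conflict, and 0.0379 without Sham replicate 3, so the side of the threshold on which it fell depended on single rats. It was 0.0862 without Sham replicate 4, the other rat of conflicting labels, and 0.0843 without both (limma).

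For the miR-378b/miR-378a-3p probe set MI had a log2 ratio to Sham of -0.23 (SE 0.0961, 95% confidence interval -0.44 to -0.02), a fold of 0.852, with an adjusted p of 0.136 (limma) and an exact permutation p of 0.0286. The median log2 ratio over all miRNAs tested was -0.04 in this comparison. Relative to that median, the log2 ratios were -0.35 for miR-378a-5p and -0.19 for the miR-378b/miR-378a-3p probe set. Since no slide held both groups, slide and ligation cannot be told apart here. A fit with slide as a block, which links the 2 groups through the YQFM arrays alone, gave -0.31 for miR-378a-5p (adjusted p = 0.766, limma) and -0.43 for the miR-378b/miR-378a-3p probe set (adjusted p = 0.625, limma).

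**Figure D2:**
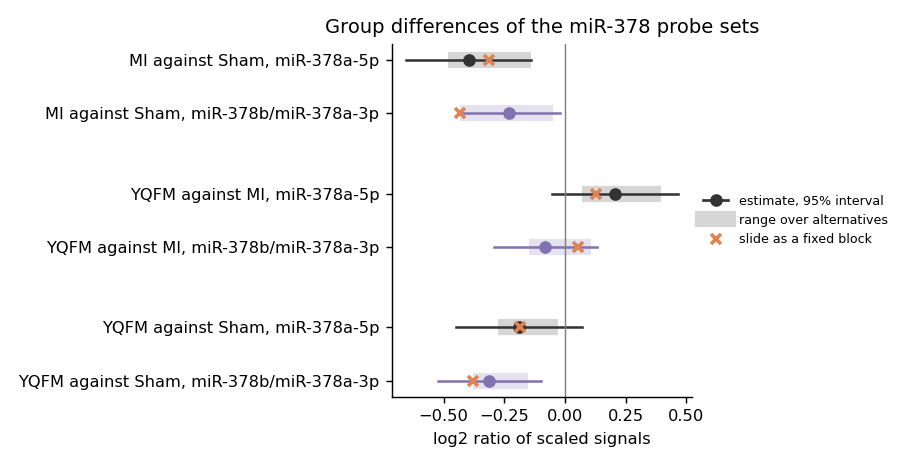
Log2 ratios of scaled signals (horizontal axis) of miR-378a-5p and the miR-378b/miR-378a-3p probe set in the 3 comparisons. Points and lines are limma estimates with 95% confidence intervals over 12 arrays, shaded bands the range over the alternative processings and crosses the fit with slide as a fixed block. The interval for MI against Sham lies below 0 for both (-0.66 to -0.14 and -0.44 to -0.02), and for YQFM against MI the cross of the miR-378b/miR-378a-3p probe set lies above 0 at 0.05 while its estimate is -0.08.

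The comparison of YQFM with MI addressed what the injection does to the miRNA after ligation. The log2 ratio of YQFM to MI was 0.21 for miR-378a-5p (SE 0.118, 95% confidence interval -0.05 to 0.47), a fold of 1.15. All 16 pairs of a YQFM and an MI rat had the higher level in the YQFM rat, with 0.03 between the closest values on the log2 scale. The exact permutation p was 0.0286 and the adjusted p was 0.399 (limma). Only slide 2 held both groups, with MI replicate 4 and YQFM replicate 1, so slide and injection can hardly be told apart here. With slide as a random block the log2 ratio of miR-378a-5p was 0.18 (adjusted p = 0.998, limma). limma called 0 of 263 miRNAs in this comparison, or 0%, with 50 at an unadjusted p under 0.05 (19%), and a test without limma's moderation, adjusted in the same way, also called 0. In 11 of the 263, or 4.18%, every YQFM rat was above every MI rat.

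The miR-378b/miR-378a-3p probe set did not take the same direction in this comparison. Its log2 ratio of YQFM to MI was -0.08 (95% confidence interval -0.29 to 0.13), with overlapping groups, an adjusted p of 0.807 (limma) and an exact permutation p of 0.371. The sign of this value was not stable, and with slide as a block, which rests on 1 YQFM array and 1 MI array of slide 2, it was 0.05. That same pair of arrays gave 0.13 for miR-378a-5p.

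YQFM was also compared with Sham. For miR-378a-5p the log2 ratio of YQFM to Sham was -0.19 (95% confidence interval -0.45 to 0.07), a fold of 0.876, with overlapping groups, an adjusted p of 0.664 (limma) and an exact permutation p of 0.171. It was -0.10 without Sham replicate 1, the highest rat, -0.28 without Sham replicate 3, and -0.28 to -0.03 over all alternatives. For the miR-378b/miR-378a-3p probe set it was -0.31 (95% confidence interval -0.52 to -0.10), a fold of 0.805, and every YQFM rat was below every Sham rat by at least 0.02 on the log2 scale. Its exact permutation p was 0.0286 and its adjusted p was 0.452 (limma), although only 1 of the 263 miRNAs had a smaller p in this comparison. limma called 0 of 263, or 0%, with 15 at an unadjusted p under 0.05 (5.7%), and the test without moderation called 0. In 16 of the 263, or 6.08%, the YQFM rats were all below the Sham rats.

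Slide 3 held 3 YQFM arrays and all 4 Sham arrays, which allowed this comparison within a slide. There the log2 ratio of YQFM to Sham was -0.38 for the miR-378b/miR-378a-3p probe set, with no overlap and an exact permutation p of 0.0571, the smallest that 3 against 4 allow. For miR-378a-5p it was -0.19 within the slide, with overlapping groups and an exact permutation p of 0.229. The median log2 ratio of all miRNAs tested was -0.11 over all arrays in this comparison, so that relative to it the values over all arrays were -0.20 for the miR-378b/miR-378a-3p probe set and -0.08 for miR-378a-5p.

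**Figure D3:**
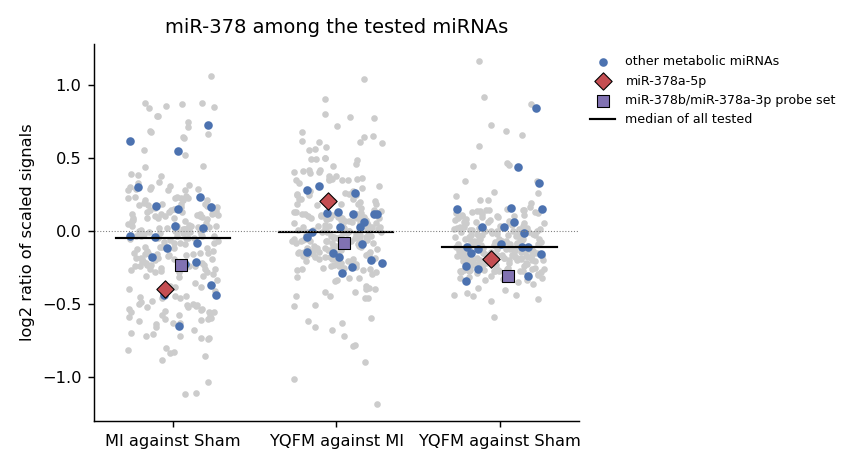
Log2 ratio of scaled signals (vertical axis) of the 263 tested miRNAs in the 3 comparisons. Grey points are miRNAs spread sideways for visibility, blue points other metabolic miRNAs, the diamond miR-378a-5p, the square the miR-378b/miR-378a-3p probe set and the line the median of all tested. For MI against Sham the diamond lies at -0.40 and the square at -0.23, with the median at -0.04.

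The difference between the sets within a rat, log2 of the miR-378b/miR-378a-3p set minus log2 of miR-378a-5p, does not change when an array is rescaled by a single factor. Because probes differ in how they bind, its size is not a ratio of abundances, and only its differences between rats can be read. It was 1.79, 1.85, 2.08 and 1.90 in Sham replicates 1 to 4. In MI it was 2.01, 2.05, 2.17 and 2.06. In YQFM it was 1.99, 1.78, 1.66 and 1.70. The MI rats had the highest values apart from Sham replicate 3, and the YQFM rats of slide 3 the lowest.

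The mean difference was 1.91 ± 0.13 for Sham, 2.07 ± 0.07 for MI and 1.78 ± 0.15 for YQFM (SD, n = 4 each). From MI to YQFM it was lower by 0.29 (difference -0.29, 95% confidence interval -0.48 to -0.10), and all YQFM values lay under all MI values by at least 0.02. The exact permutation p was 0.0286, and 0.0857 after Benjamini-Hochberg adjustment over the 3 comparisons of this difference. MI exceeded Sham by 0.17 (95% confidence interval -0.02 to 0.36, exact permutation p = 0.114, adjusted 0.171). This direction turned with slide as a block (-0.12) and with another background correction, normexp (-0.0220). The normexp setting added an offset of 50, more than the mean scaled signal of miR-378a-5p in any group. Such an offset shrinks the log2 ratios of the weaker set more than those of the stronger one, which alters this difference. YQFM against Sham gave -0.12 (exact permutation p = 0.286). On slide 2, the YQFM array was at 1.99 and the MI array at 2.06, so that the difference between the treatments within that slide was -0.07. On slide 3 YQFM against Sham was -0.19, without overlap (exact permutation p = 0.0571). The slide's part in the difference between YQFM and MI was not tested beyond these pairs.

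**Figure D4:**
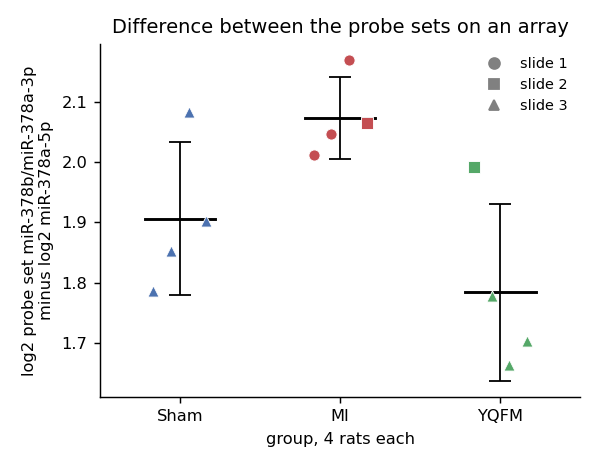
Log2 level of the miR-378b/miR-378a-3p probe set minus that of miR-378a-5p on the same array (vertical axis, which does not start at 0) by group. Points are rats, marker shapes are slides, and bars are the group mean with its SD (n = 4). The MI rats sit at 2.01 to 2.17 and the YQFM rats at 1.66 to 1.99, where the highest YQFM value is the array on slide 2.

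The 2 probes of each set can be read separately. For miR-378a-5p MI relative to Sham was at a log2 ratio of -0.43 by the longer probe and -0.35 by the shorter one, and that of YQFM to MI was 0.22 and 0.19. The longer probe kept both pairs of groups apart, whereas the shorter one had overlapping groups in both. For the miR-378b/miR-378a-3p set the probes were further from each other. The longer probe, whose sequence reaches 1 base further towards the seed, gave -0.31 for MI against Sham with the groups apart, and the shorter gave -0.12 with overlap. For YQFM against MI the longer gave -0.00908 and the shorter -0.18, with overlap in both. For YQFM against Sham they gave -0.32 with the groups apart and -0.30 with overlap.

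**Figure D5:**
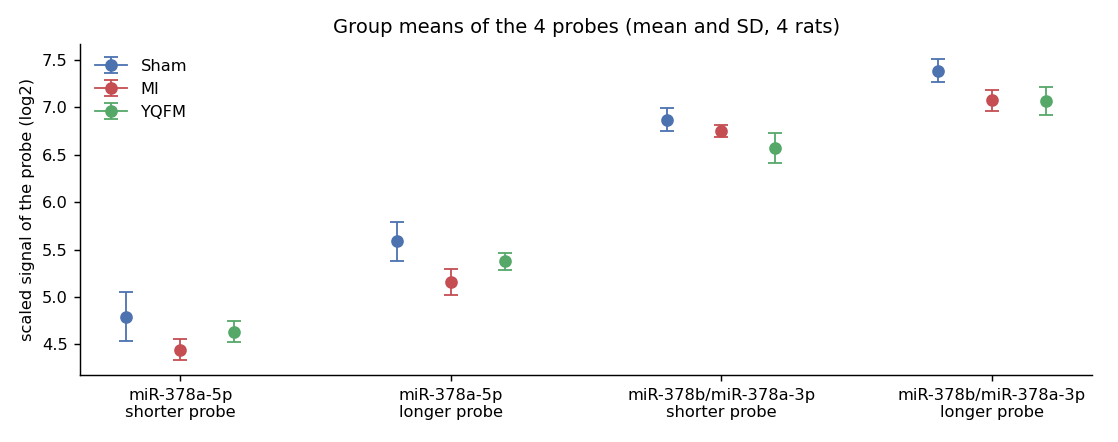
Scaled signal on the log2 scale (vertical axis, which does not start at 0) of each of the 4 probes, as group means with their SD over 4 rats. Both probes of miR-378a-5p have their lowest mean in MI, and the longer probe of the miR-378b/miR-378a-3p set gives -0.31 for MI against Sham where the shorter gives -0.12.

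The levels of the 2 sets varied together across rats. Over the 12 arrays Pearson's r was 0.685 (permutation p = 0.0171) and Spearman's rho was 0.594 (permutation p = 0.0456). These p-values were 0.0455 and 0.0768 after adjustment over both coefficients in all 8 ways in which the relation was computed. With the group means taken out, r was 0.670 (permutation p = 0.0157). This permutation moved the residuals across groups without allowing for the means removed, so its p tends to be too small. The relation was uneven between groups, with r of 0.902 for Sham and 0.956 for MI but 0.362 for YQFM (n = 4 each, given as a description). Sham replicate 1 and YQFM replicate 4 were the arrays farthest from the median level of the miR-378b/miR-378a-3p set. Without them r was 0.524 (permutation p = 0.119), so the relation rested in part on these 2 arrays. Within slide 3 (n = 7) it was 0.789 (exact permutation p = 0.0226), and the other slides held too few arrays. Both values of a rat come from the same array and share its scaling, and r was 0.376 (permutation p = 0.228) after quantile normalization.

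Among the 200 miRNAs detected on all arrays that were ranked for a pattern like that of miR-378a-5p, the closest were miR-1b (r = 0.869 over 12 arrays), miR-92a-3p (0.849), miR-30d-5p (0.83), miR-30e-3p (0.821) and miR-877 (0.817). The miR-378b/miR-378a-3p probe set ranked 29th of the 200 for miR-378a-5p, and the median r over the 200 was 0.178. Closest to the miR-378b/miR-378a-3p probe set were miR-92a-3p (0.850), miR-30a-3p (0.83), miR-1188-5p (0.818), miR-3594-5p (0.809) and miR-1224 (0.804), where the median r was 0.305. miR-92a-3p was thus among the 5 closest of both sets. These lists are descriptions that share arrays and scaling with the miRNA itself. By Spearman's rho 1 of the 5 names stayed for miR-378a-5p and 0 for the miR-378b/miR-378a-3p probe set.

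The locus of miR-378 is also annotated on the opposite strand, with miR-3557. This miRNA was looked up after its overlap and values had been seen. The sequences are shown because capitals mark the bases complementary to the miR-378 arms, 22 of 22 in the 3p arm against miR-378a-5p and 21 in the 5p arm against miR-378a-3p.
rno-miR-3557-3p: ACACAGGACCUGGAGUCAGGAG
rno-miR-3557-5p: gCCUUCUGACUCCAAGUCCAGU
miR-3557-3p was detected on 12 of 12 arrays, with log2 levels of 5.52 ± 0.35 for Sham, 5.54 ± 0.13 for MI and 5.26 ± 0.27 for YQFM (SD, n = 4 each). Its log2 ratio in MI relative to Sham was 0.01 (adjusted p = 0.972, limma), against -0.40 for the arm it complements, but with slide as a block the values were -0.58 and -0.31, the other way round in size. Its log2 ratio of YQFM to MI was -0.28 (adjusted p = 0.489, limma), and 0.18 with slide as a block. miR-3557-5p was detected on 0 of 12 arrays.

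miR-378a-5p was set beside a list of 25 other miRNAs known for roles in cardiac and systemic metabolism, all on the array and 21 of them tested. In MI against Sham 0 of the 21 were called higher and 1 lower, where 18 of all 263, or 6.84%, were called lower, and the list's median log2 ratio was -0.03, next to -0.04 over all miRNAs tested. The one called lower was miR-22-3p, a miRNA abundant in heart muscle and linked to hypertrophic growth. Its log2 levels were 10.78 ± 0.06 for Sham, 10.34 ± 0.20 for MI and 10.47 ± 0.10 for YQFM (SD, n = 4 each), which gave a ratio of -0.44 on the log2 scale for MI over Sham (SE 0.103, adjusted p = 0.0279, limma). This call held in 16 of 35 alternatives. Its adjusted p was 0.803 with slide as a block, 0.0794 after quantile normalization, 0.0580, 0.102 and 0.0926 without MI replicates 1, 2 and 3, and 0.0697, 0.0588 and 0.0722 without Sham replicates 1, 3 and 4 (all limma). In 3 of the 21 the ratio in that comparison was below that of miR-378a-5p, as it was in 56 of all 263 (21.3%).

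In YQFM against MI 0 of the 21 were called by limma in either direction, with 1 at an unadjusted p under 0.05, and their median log2 ratio was 0.03. The members with the smallest p were miR-494-3p at -0.29 (adjusted p = 0.245), miR-181c-5p at 0.28 (adjusted p = 0.371) and miR-107-3p at -0.25 (adjusted p = 0.413, all limma). miR-107-3p comes from an intron of a pantothenate kinase gene and is known as a regulator of insulin sensitivity. In YQFM against Sham 0 were called by limma as well, at a median log2 ratio of -0.09, and the smallest p belonged to miR-22-3p at -0.31 (adjusted p = 0.452). Next by p came miR-199a-5p at 0.85 and miR-1-3p at -0.24 (adjusted p = 0.664 for each, limma). The untested members included miR-208a-3p, detected on 1 array, and miR-33-5p, an intronic miRNA of the sterol regulator SREBP2, detected on 0.

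The tissue label was checked against miRNA markers. Of 4 cardiomyocyte markers 3 were detected on all arrays, with a summed scaled signal of 4792 to 6955 for Sham, 4855 to 6441 for MI and 4298 to 5364 for YQFM, while miR-208a-3p was detected on 1 array. All 4 fibroblast markers were detected, at a summed signal of 380 to 561 for Sham, 473 to 1104 for MI and 488 to 1543 for YQFM. Of 5 leukocyte markers 3 were detected on all arrays, at 278 to 316 for Sham, 265 to 338 for MI and 263 to 316 for YQFM, and miR-142-3p and miR-142-5p on none. Erythrocyte markers summed to 196 to 249 for Sham, 160 to 212 for MI and 164 to 198 for YQFM, with 1 of 3 detected on all arrays. This sum was mostly miR-486, at log2 levels of 7.32 to 7.95. The log2 level of miR-451-5p ran from 2.38, the floor, to 4.78, and miR-144-3p was detected on none. Both endothelial markers were on the array, at 563 to 733 for Sham, 707 to 941 for MI and 575 to 712 for YQFM, and both smooth muscle markers, at 502 to 611, 381 to 604 and 431 to 551. The skeletal muscle marker miR-206-3p was at 7.03 to 12.53 for Sham, 12.3 to 14.6 for MI and 9.14 to 12.1 for YQFM. The fibroblast, endothelial and skeletal muscle sums were on average highest in MI. The fibroblast markers were split between YQFM and MI. miR-21-5p and miR-214-3p were lower in YQFM (log2 ratios -0.34 and -0.18), and miR-199a-3p and miR-199a-5p slightly higher (0.02 and 0.12). The cardiomyocyte, leukocyte, erythrocyte and smooth muscle sums were on average highest in Sham. The mean log2 fibroblast sum was 8.92 for Sham, 9.62 for MI and 9.41 for YQFM. The liver marker miR-122-5p was detected on none. limma called 0 of these markers in any comparison, and their part in the miR-378 values was not tested. The other arm of miR-208a, miR-208a-5p, was not on the marker list. It was called lower in MI than in Sham (log2 ratio -1.04, adjusted p = 0.00678, limma), at log2 levels from 2.81 in MI replicate 2 to 4.18 in Sham replicate 1. Its MI levels, 2.81 to 3.32, lay not far above the floor of 2.38. No slide held both groups, and no miRNA was called in this comparison with slide as a block. In whole tissue, fewer cells of a type and less miRNA per cell cannot be told apart.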

How the data were processed

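The deposited files were Agilent scanner tables of 12 arrays, 1 per rat. Per the file headers, the authors' image software (Feature Extraction 10.7.1.1) background-corrected each spot and wrote its processed signal as a linear intensity. Control and outlier spots were left out, spots were averaged per probe and probes per miRNA. Arrays were brought to a common 75th percentile, taken over 201 miRNAs that were detected throughout, then floored at 5.20 and put on the log2 scale.

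A miRNA was detected on an array when 1 of its probes or more had over 50% of its spots well above background. The 263 miRNAs detected on at least 2 of 4 arrays of a group were tested with limma 3.58.1 in R 4.3.3 over all 12 arrays, with Benjamini-Hochberg adjustment over the 263 and a threshold of 0.05, and single values with two-sided exact permutation tests. The code was tested on simulated data. The miR-378b/miR-378a-3p probe set was used where miR-378a-3p had been planned. miRNAs named for likeness were the 5 with the highest correlation, and list members named were those called or else the 3 with the smallest p. The members and lists were chosen with earlier results of these data known. Files of mature sequences and genes came from RefSeq, and 685 of 758 array names matched. Groups came from titles, and alternatives covered background, scaling, filter, probes, slide, weights, the 2 conflicting labels and each rat left out.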

Additional observations from a re-analysis of the deposited data

How the results depend on the processing

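For miR-378a-5p the MI-to-Sham log2 ratio was below 0 in 35 of 35 alternatives (-0.48 to -0.14) and passed the threshold in 3. These were array quality weights (-0.38, adjusted p = 0.0215, limma) and the fits without MI replicate 4 and without Sham replicate 3. Leaving out each rat gave -0.48 to -0.30, with adjusted p from 0.0377 to 0.149. It was above 0 for YQFM against MI in 36 of 36 (0.07 to 0.39), passing in 0. For the miR-378b/miR-378a-3p probe set MI against Sham was below 0 in 35 of 35 (-0.43 to -0.05), passing with array weights alone (-0.24, adjusted p = 0.0360, limma). YQFM against MI turned sign for this set in the authors' processed gene values (0.11), with no scaling (0.0433), with slide as a block (0.0548) and within slide 2 (0.0548). YQFM against Sham was below 0 in 36 of 36 for it. The median of all tested miRNAs moved with the scaling, from -0.09 to 0.10 for MI against Sham, from -0.07 to 0.20 for YQFM against MI and from -0.11 to 0.06 for YQFM against Sham. Relative to it, over these scalings alone, miR-378a-5p ran from -0.35 to -0.31, from 0.18 to 0.23 and from -0.09 to -0.07. With normexp, whose offset of 50 draws the log2 ratios of weak signals towards 0, its first 2 values relative to the median were -0.14 and 0.05.

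The difference between the sets for MI against Sham was -0.0220 with normexp background correction and -0.12 with slide as a block. For YQFM against MI it was -0.13 with normexp (adjusted p = 0.0429, exact permutation test) and -0.0720 with slide as a block, and for YQFM against Sham -0.15 with normexp (adjusted p = 0.0429, exact permutation test). The normexp values include the offset of 50, so they do not show the effect of background correction alone. The correlation of the sets was 0.524 without the 2 farthest arrays, 0.376 after quantile normalization and 0.424 after scaling to the sum.

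The number called in MI against Sham, 19, was 3 with the percentile over all miRNAs, 0 with the authors' processed gene values, 2 with the brightest probe, 9 with the median over spots, 0 with no scaling, 5 with normexp, 7 with miRNAs detected on all arrays only, 2 after quantile normalization, 3 after scaling to the sum, 0 with the total gene signal, 58 without the 2 rats of conflicting labels, 0 with slide as a fixed or random block, 83 with array weights, 6 by the t-test and 4 to 62 with each rat left out. In YQFM against MI, 0, it was 1 with the brightest probe, 1 with normexp, 2 after quantile normalization, 28 without the 2 conflicting rats, 78 with array weights and 0 to 28 with each rat left out. Replicate numbers did not pair the rats (correlations of deviations from -0.636 to 0.323). With the replicate block 10 were called in MI against Sham, and miR-378a-5p was at -0.40 (adjusted p = 0.081, limma).

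miR-3557-3p in MI against Sham was below 0 with the authors' processed values (-0.0126), the mean of log2 probes (-0.0170), normexp (-0.00174), slide as a fixed block (-0.58), slide as a random block (-0.22) and array weights (-0.0375), and ran from -0.13 to 0.15 with each rat left out. With slide as a block it was 0.18 in YQFM against MI, and miR-181c-5p was -0.0812. The causes of these changes were not tested. Both probe sets were well above background on all 12 arrays, and the number of rats limits the precision.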
